A study of Homo sapiens with 31 samples.

Results

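This account sets tumours of the cyclophosphamide-resistant PC3 clone D4 against tumours of the sensitive PC3 clone A3, both taken from animals treated with cyclophosphamide (CPA). The comparison holds 8 of the 31 arrays of the series, 4 labelled as CPA-treated D4 (replicates 1, 2, 4 and 5) and 4 labelled as CPA-treated A3 (replicates 1, 2, 3 and 4), and it runs over 17314 genes. PC3, a widely used cell line from a human prostate carcinoma, has no functional p53. D4 and A3 were each re-isolated from PC3 after passage in animals, so each side is 1 clone. The cells were injected again as xenografts, and when the tumours averaged 30 mm3 the CPA groups received 120 mg/kg intraperitoneally. Total RNA was read on Affymetrix Human Gene 1.0 ST arrays. The other groups used here are untreated D4 (n = 4) and untreated A3 (n = 3), CPA-treated D3 (n = 4), a further resistant clone, and CPA-treated unpassaged PC3 (wt, n = 4), which the labels call sensitive. The labels give no strain or age of the host animals and do not say whether each array stands for another animal, so p-values measure the spread between arrays, part of which may be technical.

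CPA is a prodrug. Liver cytochrome P450 enzymes turn it into a hydroxylated form whose breakdown product crosslinks DNA, and aldehyde dehydrogenases and glutathione conjugation remove the active forms. Metronomic therapy gives it often and at low dose, which acts on tumour vessels and immune cells as well as on tumour cells.

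Values are deposited log2 levels made with RMA. Differences are D4 minus A3 in log2 units, with the standard error (SE) of the limma fit over all arrays. Calls are at a Benjamini-Hochberg adjusted p below 0.05, and "higher" or "lower" always means in D4. In CPA-treated tumours 2143 of 17314 genes (12.4%) were called, 1283 higher (7.41%) and 860 lower (4.97%). Most differences were small: among called genes, 37 reached a 2-fold higher level (0.214% of all genes) and 9 a 2-fold lower one (0.052%). For 1645 genes (9.5%) all 4 D4 arrays lay above all 4 A3 arrays, and for 1537 (8.88%) all lay below; 1079 and 693 of these were also called. The median difference over all genes was -0.05. The count rested on single arrays to some degree: it was 1177 without A3 replicate 1, 1215 without D4 replicate 2, 1258 without D4 replicate 1 and 1326 without D4 replicate 5. Of the 158 called genes named below, 120 kept the call whichever array of either group was left out.

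The arrays of this series also differ from each other within groups, in part along 1 axis. That axis was computed from the wt and D3 arrays alone, in which it carried 28.7% of the spread within groups. On it the CPA-treated D4 arrays scored 14.8, 15.045, 3.36 and 12.8, and the CPA-treated A3 arrays -7.92, -8.49, -9.77 and 4.51. Untreated arrays ran from -20.3 to 7.40 in D4 and from -17.7 to 12.2 in A3. The CPA-treated D4 arrays were thus on the high side, and only D4 replicate 4 lay below A3 replicate 4. Across genes the CPA-treated clone difference had a correlation of 0.56 with the weights of the axis, and the untreated clone difference one of -0.28; genes share the arrays and are not independent. Of the higher calls 88.4% had a positive weight, of the lower calls 31.3%, and of all genes 45.1%. The sign of the axis was set so that the weights of genes with a ZNF symbol sum to a positive value. A score adds up the levels of an array times the weights. The correlations and shares therefore follow in large part from the scores above and are no separate evidence. With the score as a covariate, a setting chosen after seeing the data, 1120 genes were called, 568 higher and 552 lower; 520 of the 1283 higher calls and 394 of the 860 lower calls were among them. The score is made from the same levels, so as a covariate it can also take up part of the clone difference. What the axis stands for was not tested, and its part in the differences was not tested. Of the 158 called genes named below, 44 were not called with the covariate. Counts with the covariate below stand beside its 568 higher and 552 lower of all 17314 genes. Both are fewer than the 1283 and 860 without it, so a smaller count alone is not particular to a list or block.

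**Figure D1:**
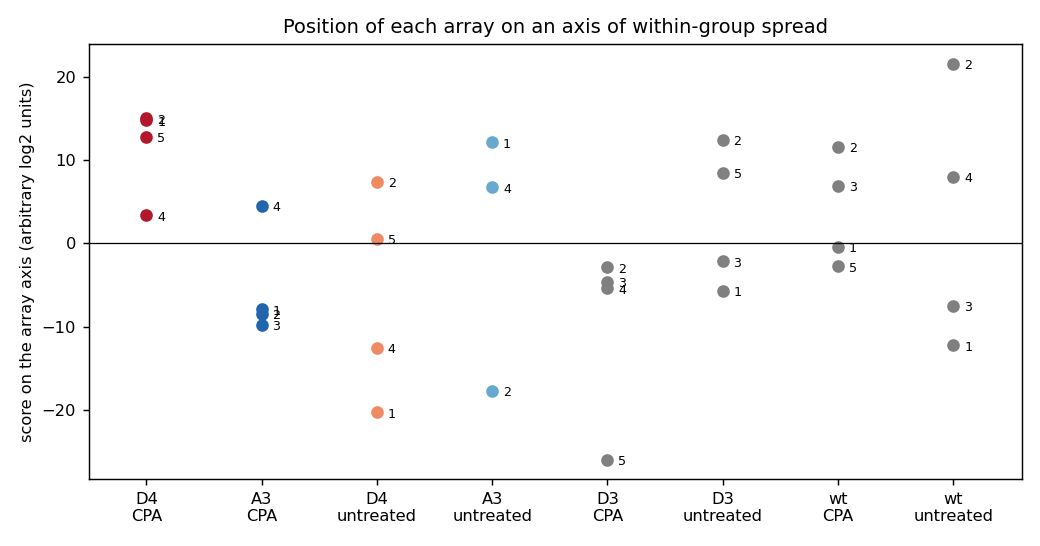
Score of each of the 31 arrays on the axis of within-group spread (vertical axis, arbitrary log2 units) by group; the digit is the replicate number. The 4 CPA-treated D4 arrays lie between 3.36 and 15.045, and the 4 CPA-treated A3 arrays between -9.77 and 4.51.

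Among the higher genes PASD1 had the greatest difference. It is a cancer/testis antigen, one of the proteins normally made in the germ line. Its levels were 7.31, 7.53, 7.32 and 7.34 in CPA-treated D4, against 5.26, 5.57, 5.48 and 5.71 in CPA-treated A3. Every D4 array lay above every A3 array, and PASD1 was 3.66-fold higher (1.87 ± 0.11 SE, adjusted p 4.9e-13). DHRS2, a short-chain dehydrogenase/reductase, had 7.74, 7.85, 7.91 and 7.61 in D4, against 6.07, 6.03, 5.84 and 5.77 in A3. It was 3.60-fold higher (1.85 ± 0.11 SE, adjusted p 4.9e-13). Both differences were also called in untreated tumours, PASD1 by 1.88 and DHRS2 by 2.19. DHRS2 was also lower under CPA within each clone, a comparison that called 178 genes in D4 (1.03%; 0.664% higher and 0.364% lower) and 61 in A3 (0.352%; 0.104% higher and 0.248% lower). It averaged 7.78 ± 0.13 in CPA-treated and 8.73 ± 0.21 in untreated D4 tumours (SD, n = 4 each; limma adjusted p 4.5e-06). In A3 it averaged 5.93 ± 0.14 in CPA-treated (SD, n = 4) and 6.55 ± 0.07 in untreated tumours (SD, n = 3; limma adjusted p 0.0079).

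F3 encodes tissue factor, the membrane protein that starts coagulation. Its levels were 8.74, 8.54, 8.63 and 8.55 in CPA-treated D4, against 7.45, 7.003, 7.14 and 7.08 in CPA-treated A3, a 2.72-fold difference (1.45 ± 0.15 SE, adjusted p 8.6e-08). The untreated difference was 1.92. F3 did not differ past the threshold between CPA-treated D3 and A3 (0.27 ± 0.15 SE, adjusted p 0.39), a comparison that uses the same A3 arrays. On the X chromosome, MBNL3, an RNA-binding regulator of splicing, was 2.44-fold higher (1.29 ± 0.13 SE) with 6.47, 6.87, 6.53 and 6.54 in D4, against 5.37, 5.48, 5.21 and 5.21 in A3. STK26, a kinase of the germinal centre kinase group, was 2.36-fold higher (1.24 ± 0.13 SE). Its D4 arrays ran from 6.85 to 7.33 and its A3 arrays from 5.49 to 6.24. Both genes were called in untreated tumours too, MBNL3 by 0.86 and STK26 by 0.79.

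**Figure D2:**
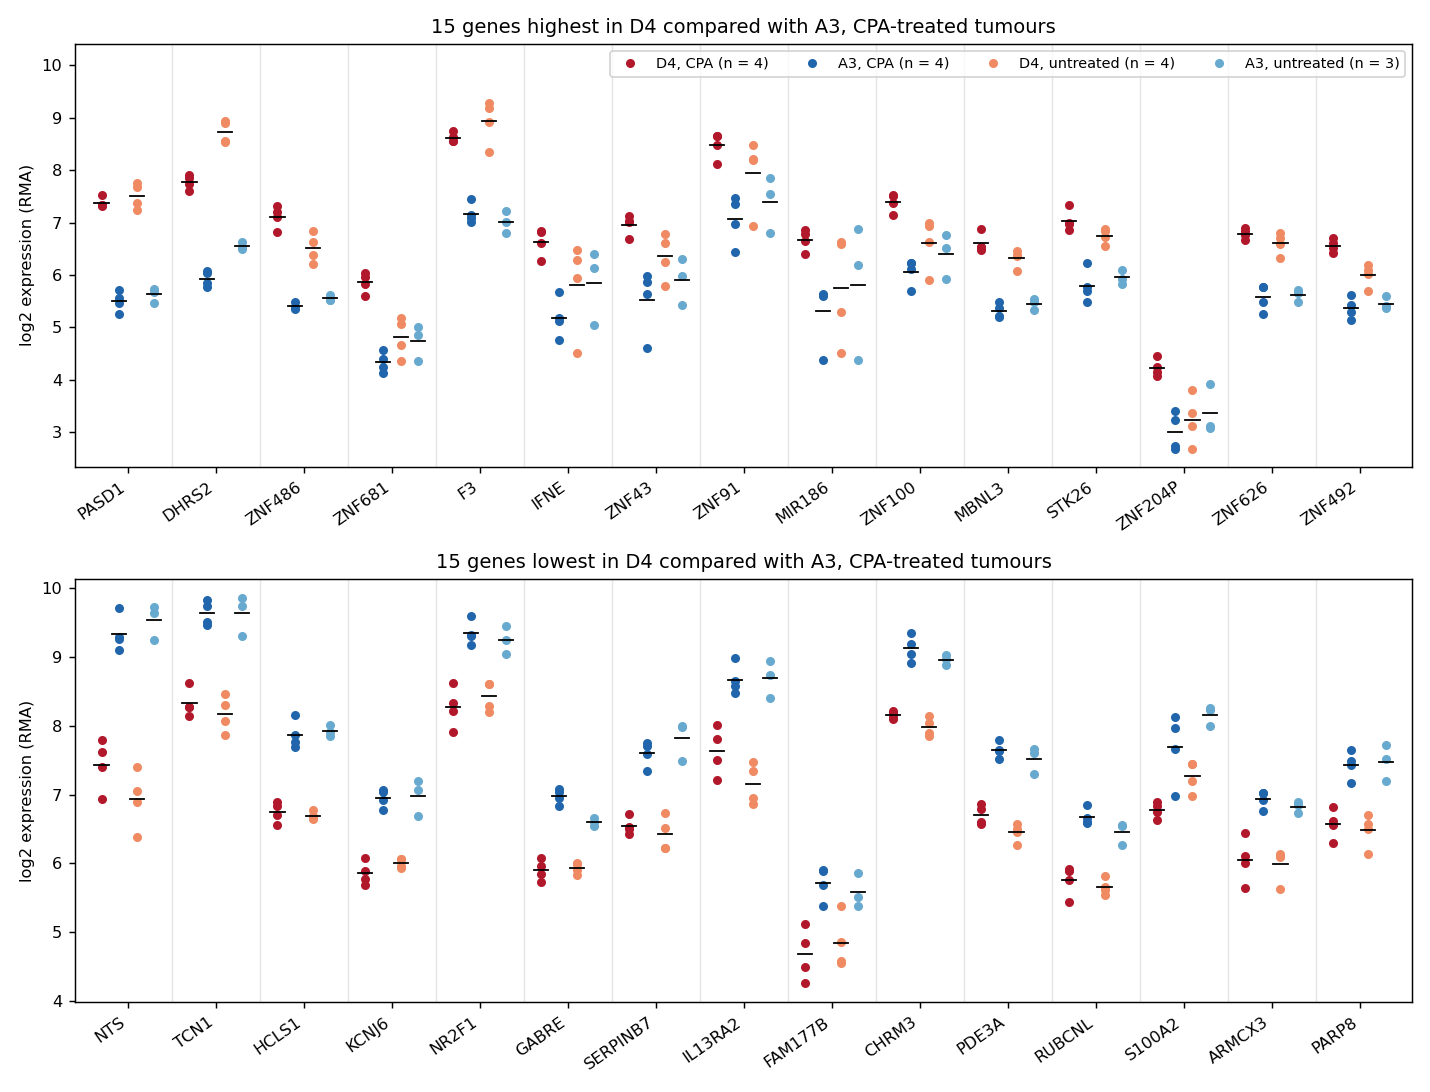
Log2 level (vertical axis) of 30 called genes whose CPA-treated arrays do not overlap, 15 at the top and 15 at the bottom of the differences; each point is 1 array and each bar a group mean. NTS has 6.94 to 7.79 in CPA-treated D4 and 9.11 to 9.71 in CPA-treated A3, and MIR186 spreads from 4.37 to 6.89 within untreated A3.

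Neurotensin (NTS), a secreted peptide that acts as a growth factor on cells with its receptors, was the lowest. Its levels were 7.79, 7.40, 6.94 and 7.63 in CPA-treated D4, against 9.29, 9.71, 9.11 and 9.26 in CPA-treated A3. This is a 3.74-fold lower level (-1.90 ± 0.22 SE, adjusted p 7.9e-07). In CPA-treated wt tumours NTS averaged 6.72, so D4 was higher than wt by 0.72 and A3 by 2.62. TCN1, a vitamin B12 binding protein, had 8.14, 8.28, 8.62 and 8.28 in D4, against 9.52, 9.75, 9.47 and 9.83 in A3 (-1.31 ± 0.14 SE, adjusted p 3.0e-07). Here D4 was lower than wt by 1.17, and the difference between A3 and wt was 0.14 (adjusted p 0.54). HCLS1, an actin regulator best known from blood cells, fell by 1.13 ± 0.11 SE. Its D4 arrays ran from 6.56 to 6.89 and its A3 arrays from 7.70 to 8.16.

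KCNJ6, a G protein-gated potassium channel, had 5.89, 5.69, 6.08 and 5.77 in D4, against 7.07, 6.78, 6.92 and 7.04 in A3 (-1.09 ± 0.11 SE). GABRE, a subunit of the GABA-A receptor, had 5.73 to 6.07 in D4 and 6.83 to 7.09 in A3 (-1.07 ± 0.08 SE). CHRM3, the muscarinic acetylcholine receptor M3, had 8.11, 8.18, 8.22 and 8.13 in D4, against 8.92, 9.05, 9.20 and 9.35 in A3 (-0.97 ± 0.08 SE, adjusted p 6.5e-10). PDE3A, which breaks down cyclic AMP, fell by 0.94, and IL13RA2, a decoy receptor for interleukin 13, by 1.04. NR2F1, an orphan nuclear receptor, fell by 1.08 and the protease inhibitor SERPINB7 by 1.06. S100A2, a calcium-binding protein, was nearest to overlap: its highest D4 array had 6.89 and its lowest A3 array 6.98. FAM177B, RUBCNL, ARMCX3 and PARP8 completed the 15 lowest, with differences of -1.03, -0.92, -0.89 and -0.86. All 15 were also called lower in untreated tumours, where 2.02% of all genes were lower and 1.75% higher, and with the axis score as a covariate.

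The 15 highest genes were not all alike in this. In untreated tumours 8 of them were called higher and 7 were not: ZNF681, IFNE, ZNF43, ZNF91, MIR186, ZNF100 and ZNF204P. Of the 15, 13 had a positive weight on the array axis, against 9 of the 15 lowest, and 14 were called with the covariate, all but MIR186. IFNE, an interferon of epithelia, had 6.84, 6.61, 6.27 and 6.82 in CPA-treated D4, against 4.77, 5.18, 5.67 and 5.13 in CPA-treated A3 (1.44 ± 0.32 SE, adjusted p 0.0032). Its untreated arrays ran from 4.52 to 6.47 in D4 and from 5.04 to 6.39 in A3, ranges that overlap those of both treated groups. MIR186, a microRNA gene, had 6.41 to 6.86 in CPA-treated D4 and 4.38 to 5.63 in CPA-treated A3 (1.37 ± 0.42 SE, adjusted p 0.031). With the covariate its difference was 0.57 (adjusted p 0.35), and without A3 replicate 1 it was 1.06 (adjusted p 0.142). ZNF204P, a zinc finger pseudogene of chromosome 6, had 4.07 to 4.45 in CPA-treated D4 and 2.68 to 3.40 in CPA-treated A3 (1.22 ± 0.26 SE), near the lower end of the array's range. Among 283 measured genes of small RNAs (microRNA, small nucleolar and small Cajal body RNA) 18 were called higher and 2 lower. These are 6.36% and 0.707%, against 7.41% and 4.97% of all genes, so the share of higher calls was not raised. With the covariate 3 were higher and 1 lower; the part of the axis in these genes was not tested.

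Zinc finger genes of chromosome 19 were the largest group among the highest genes: ZNF486, ZNF681, ZNF43, ZNF91, ZNF100, ZNF626 and ZNF492 made up 7 of the 15. They encode KRAB zinc finger proteins, a primate-expanded family that binds DNA, often in transposable elements, and recruits silencing complexes. Of the 29 measured genes of the 19p12 zinc finger list 20 were called higher (69.0%) and 0 lower, with a median difference of 0.67; in untreated tumours 3 were called higher (10.3%, against 1.75% of all genes) and 0 lower, with a median of 0.18. Of 200 other measured genes with a ZNF symbol on chromosome 19, 48 were called higher (24.0%) and 2 lower, and of 247 on other chromosomes 28 were called higher (11.3%) and 11 lower. The list holds several of the genes that lead the comparison, so its count is a description.

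ZNF486 was the clearest member, with 7.10, 7.21, 6.82 and 7.31 in CPA-treated D4, against 5.36, 5.36, 5.40 and 5.49 in CPA-treated A3. It was 3.27-fold higher (1.71 ± 0.13 SE, adjusted p 2.4e-10), and its untreated D4 arrays (6.21 to 6.83) also lay above the untreated A3 arrays (5.52 to 5.63). ZNF681 had 6.04, 5.96, 5.60 and 5.83 in CPA-treated D4, against 4.25, 4.14, 4.39 and 4.57 in CPA-treated A3 (1.52 ± 0.20 SE). Untreated, it overlapped, with 4.35 to 5.18 in D4 and 4.37 to 5.01 in A3. ZNF91, which in human cells represses SVA retrotransposons, had 8.64, 8.47, 8.11 and 8.66 in CPA-treated D4, against 6.43, 6.97, 7.47 and 7.36 in CPA-treated A3 (1.41 ± 0.26 SE, adjusted p 5.0e-04). Its untreated arrays ran from 6.93 to 8.47 in D4 and from 6.80 to 7.84 in A3. ZNF43 (1.44 ± 0.23 SE) had 6.68 to 7.12 in D4, 4.62 in A3 replicate 1 and 5.63 to 5.97 in the other A3 arrays. ZNF100 (1.32), ZNF626 (1.22) and ZNF492 (1.19) each had 4 D4 arrays above 4 A3 arrays.

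Set against CPA-treated wt, the pattern over these genes was split between the clones. Of the 29 listed genes 8 were called higher in D4 than in wt and 0 lower, against 7.54% higher and 7.59% lower over all genes. For A3 against wt the counts were 0 higher and 14 lower (48.3%), against 6.74% higher and 9.6% lower over all genes. Lower levels in A3 were not particular to this list. Of the 200 other ZNF genes of chromosome 19, 103 were lower in A3 than in wt (51.5%) and 0 higher. In D4 against wt 33 of those 200 were lower (16.5%) and 4 higher (2.0%). ZNF486 was higher in D4 than in wt by 1.65 and did not differ past the threshold between A3 and wt (-0.06, adjusted p 0.81). ZNF91 differed from wt by 0.25 in D4 (adjusted p 0.62) and was lower than wt by 1.16 in A3. Both comparisons share their D4 or A3 arrays with the one described here. The mean level over the 29 genes ran from 5.96 to 6.31 in the CPA-treated D4 arrays and from 5.27 to 5.54 in the CPA-treated A3 arrays. With the axis score as a covariate 15 of the 29 were called higher (51.7%), with a median of 0.41. Over all 17314 genes that fit had 568 higher. The part of the axis in this group was not tested.

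The 250 bases before the start of 4 of these genes are shown because the genes moved together and are close copies of each other. They are RefSeq sequences of GRCh38.p14, read in the direction of the gene, with each CCAAT box (CCAAT, or ATTGG on the other strand) in capitals.
ZNF486 (chr19:20166964-20167213, plus strand): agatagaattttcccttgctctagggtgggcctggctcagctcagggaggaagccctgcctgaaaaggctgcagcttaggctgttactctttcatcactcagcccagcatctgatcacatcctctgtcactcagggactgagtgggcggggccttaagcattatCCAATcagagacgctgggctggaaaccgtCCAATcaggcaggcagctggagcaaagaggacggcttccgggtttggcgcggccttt
ZNF681 (chr19:23758892-23759141, minus strand): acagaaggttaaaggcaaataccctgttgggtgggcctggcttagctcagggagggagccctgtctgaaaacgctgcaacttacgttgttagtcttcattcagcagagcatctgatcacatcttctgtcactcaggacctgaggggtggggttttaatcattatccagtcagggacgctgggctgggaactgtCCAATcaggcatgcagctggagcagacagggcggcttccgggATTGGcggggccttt
ZNF43 (chr19:21836183-21836432, minus strand): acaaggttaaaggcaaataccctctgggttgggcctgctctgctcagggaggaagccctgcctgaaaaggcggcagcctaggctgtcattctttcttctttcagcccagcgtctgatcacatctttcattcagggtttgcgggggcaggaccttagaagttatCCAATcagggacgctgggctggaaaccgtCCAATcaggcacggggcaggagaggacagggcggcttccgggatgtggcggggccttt
ZNF91 (chr19:23395472-23395721, minus strand): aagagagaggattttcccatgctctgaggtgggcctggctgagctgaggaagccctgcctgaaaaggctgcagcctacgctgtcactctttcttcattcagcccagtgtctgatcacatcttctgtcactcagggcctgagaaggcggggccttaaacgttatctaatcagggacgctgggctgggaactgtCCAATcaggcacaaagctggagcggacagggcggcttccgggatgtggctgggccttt
Between the 7 zinc finger genes among the 15 highest, these windows were identical at 74.6% to 91.2% of aligned positions, most for ZNF486 with ZNF626. The CCAAT box was in all 7, and in 33.0% of 27305 RefSeq promoters of the same length. The GC box (GGGCGG, either strand) was also in all 7, and in 42.3% of all. The TATA core (TATAAA, either strand) was in 0 of 7 and in 11.1% of all. The sequence GGAAGT (either strand), only 1 form of the ETS site, was in 0 of 7 and in 19.9% of all. Other forms of the ETS site were not counted, so the windows cannot be said to lack such sites. A match is no evidence that a factor binds there. Levels of genes this alike are uncertain where array probes match more than 1 of them, which is not given in the sources used here.

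Genes of CPA handling were called in both directions. The aldehyde dehydrogenases had 0 of 19 measured genes higher and 2 lower (10.5%, against 4.97% of all genes). ALDH2, the mitochondrial enzyme that clears acetaldehyde, had 6.72, 6.68, 6.43 and 6.66 in CPA-treated D4, against 7.38, 7.16, 7.15 and 6.97 in CPA-treated A3 (-0.54 ± 0.10 SE, adjusted p 2.9e-04). ALDH18A1, an enzyme of proline synthesis, fell by 0.30. Of 26 glutathione genes 2 were higher (7.69%, close to the 7.41% of all genes) and 4 lower (15.4%). Among them were the lower transferases GSTM3 (-0.59), GSTT1 (-0.47) and GSTO2 (-0.40). GCLC, the catalytic subunit of glutathione synthesis, was higher (0.36). With the axis covariate 0 of the 26 were higher and 4 lower, and GCLC was not called. Of 5 P450 and reductase genes CYP2J2 was called higher (0.33, adjusted p 0.048), with 5.96, 5.87, 6.47 and 6.03 in D4, against 5.96, 5.68, 5.51 and 5.86 in A3, so the groups overlapped. POR, the reductase that feeds electrons to P450 enzymes, differed by -0.12 (adjusted p 0.48). None of 11 ABC efflux transporter genes was called.

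Among 20 genes induced by NRF2, the regulator of the oxidative stress response, 2 were higher and 4 lower. ME1, which makes NADPH in the cytosol, stood out: 9.37, 9.46, 9.22 and 9.50 in CPA-treated D4, against 8.21, 8.35, 8.21 and 8.34 in CPA-treated A3, a 2.16-fold difference (1.11 ± 0.09 SE, adjusted p 2.6e-10). It lies in the block of chromosome 6 described below. NQO1, on the end block of chromosome 16, was higher by 0.31. TALDO1 of the pentose phosphate pathway (-0.38), the aldo-keto reductase AKR1C3 (-0.66) and the haem oxygenase HMOX1 (-0.45) were lower. The NRF2 list thus did not move 1 way. With the axis covariate 1 of its 20 genes was higher and 3 were lower, and NQO1 and HMOX1 were not called.

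Of 34 genes of alkylation and crosslink repair 5 were higher (14.7%, against 7.41% of all genes) and 1 lower (2.94%, against 4.97%). POLB, the polymerase of base excision repair, rose by 0.40 and REV3L, the catalytic subunit of the translesion polymerase zeta, by 0.74. RAD51C and RAD18 each rose by 0.33. REV3L had 8.24, 8.25, 7.90 and 8.09 in CPA-treated D4, against 6.93, 7.29, 7.70 and 7.59 in CPA-treated A3, and its untreated arrays overlapped. With the axis covariate 2 of the 34 were higher and 1 lower, and RAD51C (0.19) and RAD18 (0.25) were not called.

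Of 22 genes that p53 induces in cells that have it, 5 were higher (22.7%, against 7.41% of all genes) and 1 lower (4.55%, against 4.97%). PMAIP1 (NOXA), a BH3-only promoter of apoptosis, had 8.97, 8.95, 8.72 and 8.93 in CPA-treated D4, against 8.03, 8.41, 8.07 and 7.89 in CPA-treated A3 (0.79 ± 0.10 SE, adjusted p 3.6e-06). The death receptors FAS (0.53) and TNFRSF10B (0.27) were higher, and TP53I3 was lower (-0.26). FAS had 6.70 to 6.86 in D4 and 6.24 to 6.27 in A3. Of 24 apoptosis regulators 1 was higher (4.17%), the death receptor TNFRSF10A (0.42), and 3 were lower (12.5%): BID (-0.32), APAF1 (-0.37) and MCL1 (-0.24). With the covariate 2 of the 22 p53 list genes were higher and 0 lower.

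Of 39 DNA replication genes 2 were higher and 7 lower (17.9%, against 4.97% of all genes), with a median of -0.08. The helicase subunits CDC45 (-0.39) and MCM2 (-0.33) and the flap nuclease FEN1 (-0.33) fell. GINS2, a subunit of the same helicase complex encoded on chromosome 16, rose by 0.48. Of 35 mitosis genes 5 were higher (14.3%, against 7.41% of all genes) and 0 lower, with a median of 0.17 and 28 positive differences. In untreated tumours 0 of the 35 were called, 33 differences were negative and 2 positive, and the median was -0.15. TTK, the spindle checkpoint kinase, had 8.50, 8.47, 8.04 and 8.47 in CPA-treated D4, against 7.13, 7.24, 7.75 and 7.75 in CPA-treated A3 (0.90 ± 0.21 SE), while its untreated D4 arrays ran from 7.27 to 8.46. With the covariate 0 of the 35 mitosis genes were called in either direction, and TTK differed by 0.57 (adjusted p 0.055).

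Of 23 amino acid transporter genes SLC7A6 (0.87 ± 0.08 SE) was called higher and SLC7A8 (-0.59) lower, with a median of 0.03. Each is 4.35% of the list, below the 7.41% higher and 4.97% lower of all genes. SLC7A5, the large neutral amino acid transporter LAT1, had 10.54, 10.63, 10.62 and 10.61 in CPA-treated D4, against 9.97, 9.75, 9.76 and 9.65 in CPA-treated A3 (0.82 ± 0.10 SE, adjusted p 3.9e-06). SLC7A5 was counted in the stress response list. SLC7A5 and SLC7A6 both lie in the end block of chromosome 16. ASNS, asparagine synthetase, rose by 0.53 and the serine synthesis enzyme PSAT1 by 0.38, whereas CRELD2, an endoplasmic reticulum stress gene of chromosome 22, fell by 0.41. Over the list of 33 stress response genes (amino acid shortage and protein misfolding) 5 were higher (15.2%) and 4 lower (12.1%).

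Several genes for secreted and membrane proteins of clotting and matrix turnover were higher, though neither list moved 1 way. Of 15 coagulation and plasminogen genes 4 rose (26.7%, against 7.41% of all genes), F3, PLAT, SERPINI1 and SERPINE2. In the same list 1 fell (6.67%, against 4.97% of all genes), the median was -0.007 and 8 differences were negative. PLAT, tissue plasminogen activator, had 11.11, 10.97, 10.85 and 10.98 in CPA-treated D4, against 10.23, 10.05, 9.93 and 10.21 in CPA-treated A3 (0.87 ± 0.08 SE, adjusted p 4.2e-08). SERPINI1, a neuronal inhibitor of that enzyme, was higher by 0.88. Of 20 matrix proteases and inhibitors 5 rose and 2 fell. The collagenase MMP13 had 8.13, 8.05, 8.26 and 8.04 in D4, against 7.24, 7.22, 7.05 and 7.39 in A3 (0.89 ± 0.09 SE, adjusted p 8.8e-08). MMP1 (0.64) and MMP3 (0.71), its neighbours on chromosome 11, were higher as well, and the membrane protease ADAM12 was lower (-0.54). MMP13 differed from CPA-treated wt by -0.21 in D4 (adjusted p 0.13) and by -1.11 in A3 (adjusted p 1.8e-09).

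Growth factor pathways held changes at ligands, receptors and inhibitors. Of 31 BMP and TGF-beta genes 5 rose (16.1%, against 7.41% of all genes) and 6 fell (19.4%, against 4.97%). The ligand TGFB2 had 6.94, 7.18, 6.72 and 7.20 in CPA-treated D4, against 5.81, 6.14, 5.86 and 6.03 in CPA-treated A3 (1.05 ± 0.13 SE, adjusted p 2.8e-06). Its type I receptor TGFBR1 was higher by 0.46. The BMP receptor BMPR1B was lower (-0.75 ± 0.11 SE), with 6.76 to 7.05 in D4 and 7.45 to 7.95 in A3, and noggin (NOG), which captures BMP ligands outside the cell, was higher (0.72). Of 31 WNT genes 6 rose (19.4%) and 4 fell (12.9%), while 22 differences were negative and 9 positive, with a median of -0.14. The receptor FZD3 (0.47) and the ligand WNT5A (0.40) were higher, and the ligand WNT7A (-0.35) and the transcription factor TCF7L2 (-0.49) lower.

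Of 26 EGF and MAP kinase feedback genes 0 rose and 5 fell (19.2%, against 4.97% of all genes). PHLDA1 had 9.94, 9.85, 9.91 and 9.90 in CPA-treated D4, against 10.45, 10.36, 10.32 and 10.27 in CPA-treated A3 (-0.45 ± 0.06 SE, adjusted p 4.8e-06). The phosphatases DUSP5 (-0.56) and DUSP6 (-0.51), which ERK signalling induces and which switch it off, and the AP-1 subunit FOSL1 (-0.37) were lower. With the covariate 4 of the 26 were lower and 0 higher. Among 29 cytokine genes 2 rose (6.90%, against 7.41% of all genes) and 4 fell (13.8%). The neutrophil chemokines CXCL6 (-0.81 ± 0.10 SE) and CXCL1 (-0.65 ± 0.09 SE) had no overlap between groups: CXCL6 had 6.71 to 6.81 in D4 and 7.29 to 7.84 in A3. Against CPA-treated wt, CXCL6 differed by 0.18 in D4, which was not called, and by 0.99 in A3, and CXCL1 by 0.18 in D4, also not called, and by 0.83 in A3.

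Of 20 vessel growth factors and inhibitors 2 rose and 3 fell. SEMA3F, a semaphorin that repels vessels, was higher by 0.69 ± 0.11 SE, with 8.12 to 8.59 in D4 and 7.56 to 7.83 in A3. The growth factors PDGFD (-0.52), PGF (-0.39) and VEGFC (-0.33) were lower. Among 28 G protein-coupled receptors and ligands the bradykinin receptor BDKRB1 (0.95 ± 0.11 SE) and the oxytocin receptor OXTR (0.35) were higher, beside the lower NTS and CHRM3.

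Identity genes of PC3 were present in both clones. The keratin KRT18 had 9.88 to 10.15 in CPA-treated D4 and 9.85 to 9.99 in CPA-treated A3. Vimentin (VIM) had 11.14 to 11.39 in D4 and 11.05 to 11.35 in A3, and neither was called. The epithelial adhesion molecule EPCAM had 8.78 to 8.83 in D4 and 8.09 to 8.38 in A3 (0.55 ± 0.08 SE, adjusted p 1.5e-05), and KRT8 was higher by 0.61. Of 26 epithelial genes 4 rose (15.4%, against 7.41% of all genes) and 1 fell (3.85%, against 4.97%), with 13 positive and 13 negative differences. Of 17 mesenchymal genes 0 were called. In the list of cancer/testis antigens DHRS2 had also been entered. Of its 17 measured genes 4 rose (23.5%, against 7.41% of all genes) and 0 fell. The 4 were PASD1, DHRS2, SSX1 (0.85 ± 0.11 SE) and MAGEA10 (0.43 ± 0.09 SE). Most members went the other way: 12 differences were negative and 5 positive, with a median of -0.15. SATB1, a chromatin organiser, was higher by 0.74, with 6.17 to 6.82 in D4 and 5.42 to 5.92 in A3.

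Of 18 sterol synthesis genes 16 had a negative difference, 3 were called lower (16.7%, against 4.97% of all genes) and 0 higher: FDPS (-0.43), MVK (-0.32) and the regulator INSIG1 (-0.43). Of 29 hypoxia and glycolysis genes 4 fell (13.8%) and 0 rose, among them STC1 (-0.71 ± 0.18 SE), PFKFB4 (-0.72 ± 0.21 SE) and ENO2 (-0.67 ± 0.20 SE). These 3 had their highest level in A3 replicate 1. Without that array STC1 differed by -0.53 (adjusted p 0.0717), PFKFB4 by -0.49 (adjusted p 0.155) and ENO2 by -0.48 (adjusted p 0.146). In untreated tumours 0 of the 29 were called lower and 1 higher. Of 30 oxidative phosphorylation genes 15 had a positive and 15 a negative difference, 0 were called lower, and 1, COX4I1, was called higher (0.29, and 0.22 without A3 replicate 3, adjusted p 0.0525). Of 40 interferon-induced genes 2 rose (5.0%, against 7.41% of all genes), IFIT2 (0.41) and DDX60 (0.60). In the same list 2 fell (5.0%, close to the 4.97% of all genes), USP18 (-0.56) and ISG20 (-0.36). No gene was called among 21 ribosomal proteins and 24 genes of iron and copper handling.

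Host cells contribute RNA that a human array can partly bind. Of 12 endothelial markers 0 were higher and 5 lower (41.7%, against 4.97% of all genes), with a median of -0.25. ENG had 7.16, 7.09, 7.12 and 6.99 in CPA-treated D4, against 7.62, 7.64, 7.63 and 7.37 in CPA-treated A3 (-0.48 ± 0.08 SE, adjusted p 2.0e-04). KDR, the main VEGF receptor (-0.62), EGFL7 (-0.31) and TIE1 (-0.40) were lower too. The mean level of the 12 markers ran from 6.32 to 6.40 in D4 and from 6.52 to 6.61 in A3; in untreated tumours 1 of the 12 was called lower and 1 higher. With the covariate 2 of the 12 were lower. Against CPA-treated wt, A3 had 4 of the 12 higher (33.3%, against 6.74% of all genes) and 1 lower. D4 against wt had 0 higher and 1 lower (8.33%, against 7.59% of all genes). Of 11 myeloid markers 0 rose and 2 fell (18.2%), CD68 (-0.28) and CD163 (-0.33), and 10 of the 11 differences were negative. LUM was called higher among 13 fibroblast markers (0.39) and TTN among 11 muscle markers (0.84), of which 10 had a negative difference and a median of -0.21 stood over the list. None of 6 erythroid, 8 adipocyte and 8 skin keratinocyte markers was called. All 6 erythroid, all 8 skin keratinocyte and 6 of the 8 adipocyte differences were negative, whereas 9 of the 13 fibroblast ones were positive. In bulk tumours fewer cells of a type and less RNA per cell cannot be told apart, and the part of host RNA in these values was not tested.

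Called genes were spread unevenly over the chromosomes. Chromosome 6 had 217 of 799 genes higher (27.2%) and 11 lower, chromosome 18 had 50 of 248 higher (20.2%), chromosome 16 had 122 of 723 higher (16.9%) and chromosome 4 had 104 of 671 higher (15.5%), beside 7.41% over all genes. Chromosome 22 had 104 of 401 genes lower (25.9%) and 2 higher, beside 4.97% lower over all genes, and 376 of its 401 genes had a negative difference. With the axis covariate 60 of the 401 were called lower. In untreated tumours chromosome 22 had 52 lower (13.0%, against 2.02% of all genes) and 3 higher. There chromosome 16 had 56 higher (7.75%, against 1.75% of all genes) and 2 lower. The genes of chromosome 22 averaged 7.06 to 7.14 in the CPA-treated D4 arrays and 7.22 to 7.33 in the CPA-treated A3 arrays. CPA-treated wt arrays ran from 7.06 to 7.14. D4 against wt had 18 of the 401 higher and 17 lower, and A3 against wt had 107 higher (26.7%) and 5 lower.

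**Figure D3:**
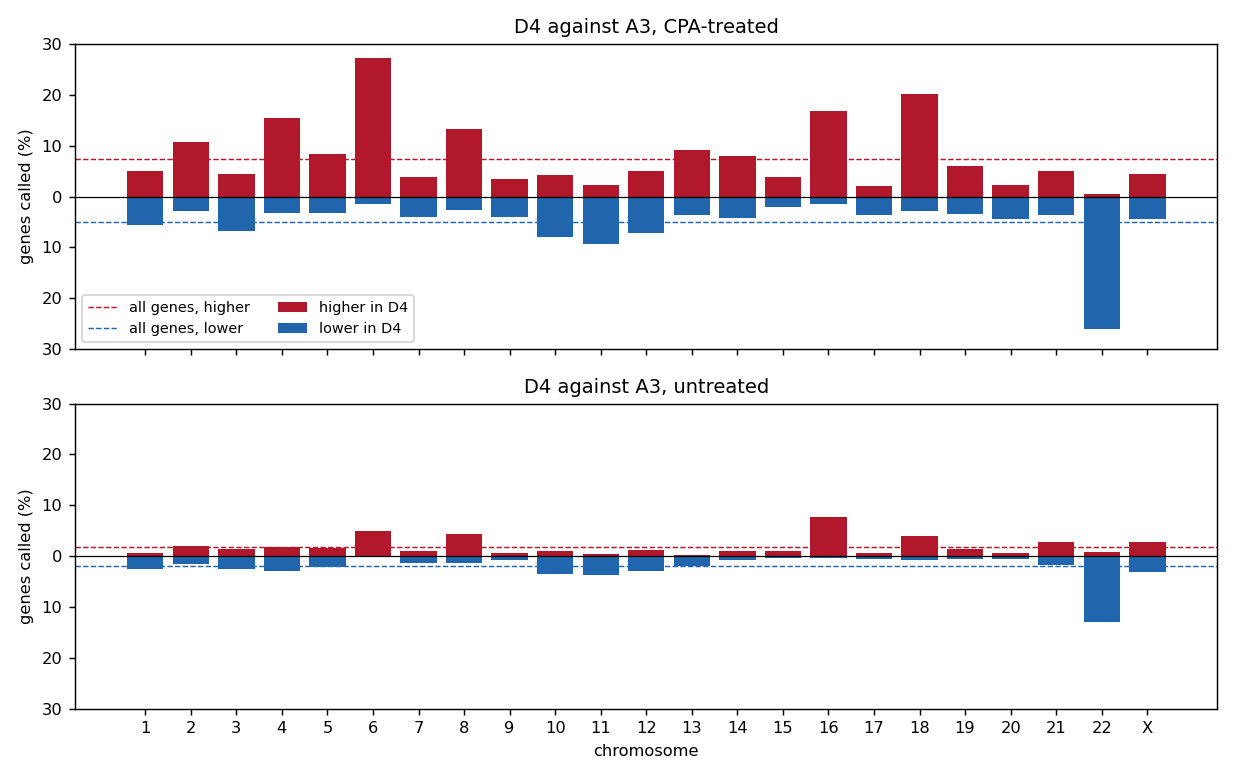
Share of measured genes called higher in D4 (upward bars) and lower in D4 (downward bars) on each chromosome, in per cent, for CPA-treated tumours (top) and untreated tumours (bottom); dashed lines give the shares over all genes. Chromosome 6 reaches 27.2% higher and chromosome 22 reaches 25.9% lower in CPA-treated tumours.

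Within chromosomes the calls lay in blocks, which were chosen after seeing the data and are described without a test. On chromosome 6, in RefSeq gene order, 173 of the 399 genes from BMP5 to the end were higher (43.4%) and 6 lower, with a median of 0.23, against 44 of the 400 genes before them. ME1, HDAC2 (0.43), REV3L and TTK lie in this block. In untreated tumours 28 of the 399 were higher (7.02%, against 1.75% of all genes) and 0 lower, with a median of 0.12. With the axis covariate 87 of the 399 were higher (21.8%) and 3 lower (0.752%). Over all 17314 genes that fit had 568 higher and 552 lower. On chromosome 16, 87 of the 203 genes from KCTD19 to the end were higher (42.9%) and 1 lower, against 35 of 520 before them. This block was also visible in untreated tumours, with 47 higher and 0 lower, in CPA-treated D3 against the same A3 arrays, with 31 higher and 0 lower (1.56% and 2.99% over all genes), and with the axis covariate, with 80 higher and 0 lower. Its genes averaged 7.39 to 7.45 in the CPA-treated D4 arrays, against 7.20 to 7.28 in the CPA-treated A3 arrays and 7.19 to 7.26 in the CPA-treated wt arrays.

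Chromosome 19 held 1 window of 40 genes, from PBX4 to ZNF726, with 24 higher (60.0%) and 0 lower and a median of 0.60. Its mean level was 6.25 to 6.49 in CPA-treated D4 and 5.67 to 5.86 in CPA-treated A3, while untreated D4 ran from 5.82 to 6.20 and untreated A3 from 5.65 to 5.999. On chromosome 18 the 40 genes from SMAD4 to PHLPP1 had 19 higher (47.5%) and 0 lower, PMAIP1 among them. In untreated tumours 9 of the 40 were called higher (22.5%, against 1.75% of all genes). With the axis covariate 18 genes of the chromosome 19 window and 10 of the chromosome 18 window were higher.

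**Figure D4:**
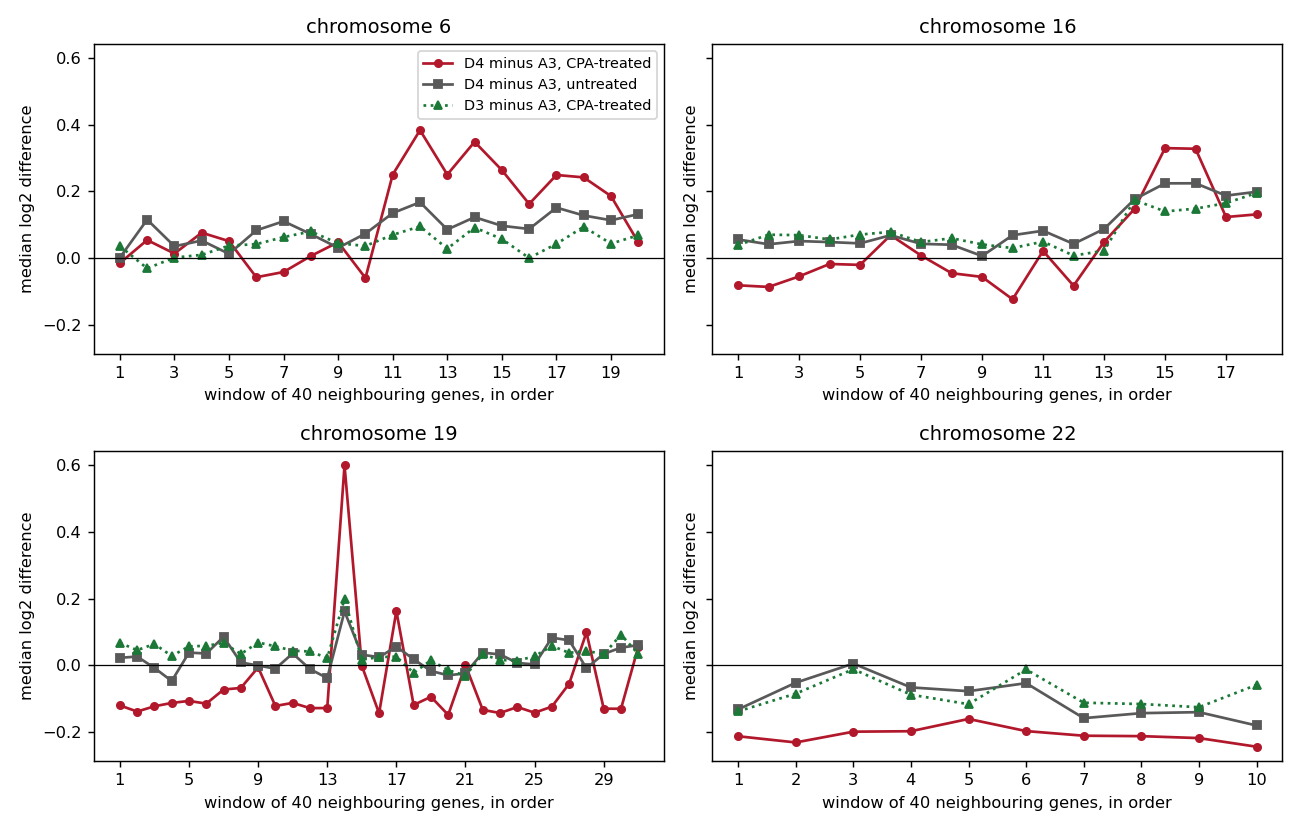
Median log2 difference (vertical axis) in windows of 40 neighbouring measured genes along chromosomes 6, 16, 19 and 22 (horizontal axis, window number in gene order), for D4 minus A3 under CPA, D4 minus A3 untreated and D3 minus A3 under CPA. The window around the 19p12 zinc finger genes reaches 0.60 under CPA, and all windows of chromosome 22 lie below 0 under CPA.

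Runs of at least 4 neighbouring measured genes, all called the same way, numbered 30 and held 146 genes. The longest, of 9 genes on chromosome 16, ran VPS4A, NIP7, TMED6, TERF2, CYB5B, NFAT5, NQO1, NOB1 and WWP2, with differences of 0.26 to 0.75. NFAT5, the factor of the response to high salt, led it, with 8.99, 9.05, 8.86 and 8.99 in CPA-treated D4, against 8.01, 8.29, 8.20 and 8.39 in CPA-treated A3 (0.75 ± 0.11 SE). A further run on that chromosome held TMEM231, GABARAPL2, ADAT1, KARS1 and TERF2IP (0.36 to 0.48), and KARS1, the lysyl-tRNA synthetase, rose by 0.48 ± 0.07 SE. Chromosome 19 had 5 runs, in which every gene but RPSA2 carries a ZNF or ZFP symbol. On chromosome 22 PI4KA, SERPIND1, SNAP29 and CRKL were lower (-0.29 to -0.59), and so were BRD1, ZBED4, ALG12, CRELD2 and PIM3 (-0.25 to -0.41). Chromosome 12 had a run of 5 bitter taste receptor genes, TAS2R14, TAS2R50, TAS2R20, TAS2R19 and TAS2R31 (0.46 to 0.77); all 5 lost the call with the covariate (0.21 to 0.43), TAS2R14, TAS2R19, TAS2R31 and TAS2R50 also lost it without A3 replicate 1, and TAS2R50 differed by 0.00 in untreated tumours. Neighbours that overlap or resemble each other can share probes, so members of a run are not independent.

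The untreated tumours of the same clones show which differences are seen without CPA; they share no array with the treated ones. Untreated D4 against A3 had 653 calls (3.77%), 303 higher (1.75%) and 350 lower (2.02%). Of the 2143 treated calls 440 were called the same way untreated, which is 20.5% of the treated and 67.4% of the untreated calls, and 1711 (79.8%) had the same sign, against 53.9% of all genes. The median size of the treated calls was 0.38 under CPA and 0.19 untreated. Calls are selected for their size under CPA, so the smaller untreated size is no test. Only KRT73, a keratin, was called in opposite directions: it had 4.25, 4.17, 4.08 and 4.01 in CPA-treated D4, against 4.34, 4.39, 4.37 and 4.44 in CPA-treated A3, and 4.26 to 4.52 in untreated D4, against 3.82 to 4.17 in untreated A3. These levels lie near the low end of the arrays, and its treated call (adjusted p 0.035) was lost without any single CPA-treated array except D4 replicate 1 (adjusted p 0.0608 to 0.118), with the axis covariate (adjusted p 0.216), and with only the groups compared, the replicate block, a variance trend or further quantile normalization.

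**Figure D5:**
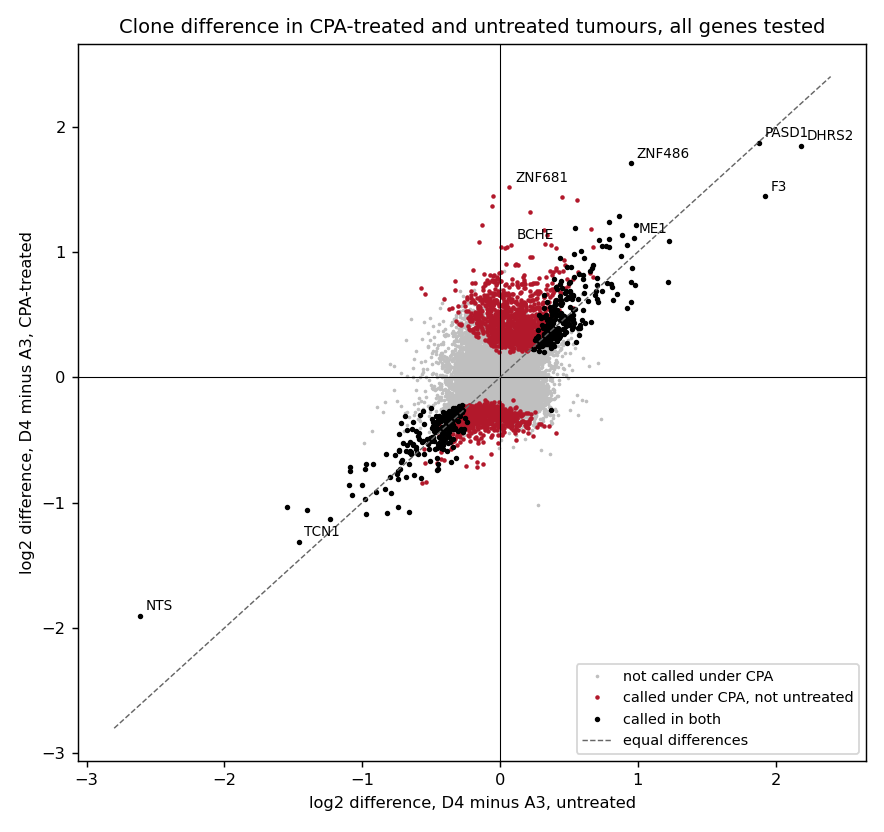
Log2 difference, D4 minus A3, of 17314 genes in CPA-treated tumours (vertical axis) and untreated tumours (horizontal axis); black points were called in both, red ones under CPA only and grey ones not under CPA, and the dashed line marks equal differences. PASD1, DHRS2, F3, TCN1 and NTS lie far from 0 on both axes, and ZNF681 lies near 0 untreated and at 1.52 under CPA.

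The test of the change itself, the treated clone difference minus the untreated one, called 0 of 17314 genes with limma, at a smallest adjusted p of 0.19. At an unadjusted p under 0.05 there were 2474 genes. The count was 375 with array weights and 0 with the replicate number as a block. It was 396 without untreated A3 replicate 2 and 3 without untreated D4 replicate 2, and 0 without each other array. Among the genes with the smallest p, ZNF681 changed by 1.45 ± 0.30 SE, the butyrylcholinesterase gene BCHE by 0.98 ± 0.23 SE and LRRC70 by 0.96 ± 0.22 SE, each at an adjusted p of 0.27. BCHE had 4.91, 4.99, 4.63 and 4.61 in CPA-treated D4, against 3.66, 3.84, 3.61 and 3.80 in CPA-treated A3; untreated it had 3.96 to 4.63 in D4 and 3.94 to 4.40 in A3. The other 5 with a positive change, TSGA10, PRKG2, CEP85L, CHAC2 and HDX, had values from 0.64 to 0.87. In the negative direction KRT73 changed by -0.63 ± 0.12 SE (adjusted p 0.19), and OR51Q1, DMRT1, TRDN, POU5F1P3, PCDHB7, HSPB6 and ZNF516-DT by -0.85 to -0.54. Differences between the treated and the untreated comparison are therefore values without a call in the fit over all arrays.

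The same genes were set beside the other CPA-treated lines. D3 against A3, which uses the same A3 arrays, had 787 calls (4.55%; 1.56% higher and 2.99% lower), of which 400 were among the 2143 calls of D4 against A3 in the same direction and 0 in the opposite one. Of the 15 highest genes 10 were called in D3 too; F3, IFNE, ZNF43, MIR186 and ZNF204P were not. Of the 15 lowest 13 were, all but S100A2 and PARP8. D4 against wt, which uses the same D4 arrays, had 2620 calls (15.1%), 664 of them among the 2143 in the same direction and 71 in the opposite one. PASD1 differed from wt by 1.77 in D4 and -0.10 in A3, DHRS2 by 1.43 in D4 and -0.42 in A3, and GABRE by 0.12 in D4 and 1.19 in A3. Read against the wt group, PASD1 and TCN1 thus differed past the threshold in D4 and not in A3, and GABRE and SERPINB7 (0.11 in D4 and 1.16 in A3) in A3 and not in D4.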

How the data were processed

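The deposited table holds log2 expression values of 23989 probe sets on 31 arrays, which the authors computed by RMA according to the submitters' processing notes. RMA corrects background, quantile-normalizes and summarizes probes. Values ran from 1.27 to 14.1, and array medians from 6.59 to 6.73. Platform annotation gave 17624 probe sets 1 symbol, 411 several and 5954 none. Each of 17314 genes was represented by the brightest of its single-symbol probe sets, judged by the mean of all arrays (276 genes had more than 1). An untreated A3 array that the submitters set aside was not analysed here.

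All 31 arrays entered 1 limma fit (limma 3.58.1, R 4.3.3) with 8 group means (4 lines, untreated or CPA-treated) and moderated variances (23 residual degrees of freedom). Benjamini-Hochberg adjustment ran over all genes, and the procedure was tested on simulated data with independent noise in each gene and array. Those data hold no spread shared between genes like that of the array axis, so false calls from such spread were not tested. The number of arrays limits the precision: at the median residual SD of 0.148 the SE of a 4-against-4 difference was 0.105. Alternatives were fits restricted to the compared groups, a block for replicate number, a variance trend, robust variances, array weights, further quantile normalization, median centring, a filter on the dimmest 30% of genes, other treatments of probe sets, and leaving out each array.

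The labels do not say whether shared replicate numbers (1, 2 and 4 in both clones) pair the samples, so the main fit used no pairing. The gene lists (47, with 944 of 1078 genes measured) and the arrays compared were chosen with earlier results of these data known. Named genes are called genes without overlap between arrays at either end of the differences (15 each), at most 4 genes per list, taken by p, the 8 smallest p-values of the interaction in each direction, members of neighbour runs, the gene called in opposite directions, and line markers. Gene order is that of RefSeq (GRCh38.p14), in which 17290 genes were found. Promoters are RefSeq's, cut with Python 3.11.15.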

Additional observations from a re-analysis of the deposited data

Results flagged for a closer look

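Among 329 groups of 4 arrays examined (163 named genes in the CPA-treated D4 and A3 groups, and the axis scores), 26 had 1 array far from the other 3 by Dixon's test, 17 in D4 and 9 in A3; chance flags about 1 in 20 such groups. In CPA-treated D4, replicate 4 was low for the spindle kinase TTK at 8.04, with the other 3 between 8.47 and 8.50, and for NIP7 (9.75) and PMAIP1 (8.72), and high for ALDH18A1 (10.23) and PIM3 (7.71). D4 replicate 5 was low for TTN at 7.69, with the others between 8.35 and 8.41, and for CRELD2 (7.43), MAGEA10 (6.89), PDGFD (5.57) and TP53I3 (8.73), and high for CRKL (9.11). D4 replicate 2 was high for PASD1 at 7.53, with the others between 7.31 and 7.34, and for BID (7.71) and HDX (6.43), and low for HMOX1 (6.92). D4 replicate 1 was high for ADAM12 (7.87) and APAF1 (8.27).

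On the array axis A3 replicate 4 scored 4.51, against -9.77 to -7.92 in the other A3 arrays. A3 replicate 1 was low for MIR186 at 4.38, with the other 3 between 5.59 and 5.63, and also for TAS2R20 (5.47), LRRC70 (5.07) and RAD18 (9.97). A3 replicate 4 was low for ENG at 7.37, with the others between 7.62 and 7.64, and for PIM3 (7.63), and high for POLB (7.90). A3 replicate 3 was low for TERF2IP (7.96; the others 8.16 to 8.17).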

How the results depend on the processing

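The 2143 genes called in CPA-treated D4 against A3 became 4632 with array weights and 1120 with the axis score as a covariate (added after seeing the data), and between 1177 and 2670 when 1 array was left out, the lowest without A3 replicate 1 and the highest without A3 replicate 4. The 653 untreated calls became 67 with only the groups compared, 1644 with array weights and 995 with the axis score, and 281 to 799 without 1 array, the lowest without untreated A3 replicate 4 and 368 without untreated A3 replicate 1. The change of the clone difference, with 0 genes called, gave 375 with array weights and 0 to 396 without 1 array. The 440 genes called the same way in both became 897 with array weights and 231 to 546 without 1 array. The lowest count was without untreated A3 replicate 4. They became 192 in a fit of the D4 and A3 groups, treated and untreated together. That fit is not the one that gave 67, which held the untreated groups alone. In fits of only some groups the spread comes from fewer arrays. The cause of the other changes was not tested. The share of calls that were higher was 59.9% and ran from 50.7% with the axis score to 65.9% with only the groups compared over the settings that kept the 8 arrays, and from 56.8% without A3 replicate 4 to 66.1% without D4 replicate 5. With the replicate number as a block the counts were 1710 treated, 573 untreated, 0 for the change and 404 shared; same-numbered CPA-treated arrays correlated at -0.32 to 0.03 and untreated ones at -0.63 to -0.14, and 0 arrays correlated best with their own number. Of 158 named called genes 0 changed direction, 44 lost the call with the axis score, 20 with another setting and 38 without at least 1 array: ALG12, BRD1, CD163, CD68, COX4I1, CYB5B, CYP2J2, DDX60, EGFL7, ENO2, FOSL1, IFIT2, INSIG1, ISG20, KRT73, LUM, MCL1, MIR186, MVK, OR51Q1, PCDHB7, PFKFB4, RAD18, RAD51C, STC1, TAS2R14, TAS2R19, TAS2R31, TAS2R50, TERF2, TIE1, TMED6, TNFRSF10B, TP53I3, TRDN, VPS4A, ZNF516-DT and ZNF726. Genes that lost the call with the axis score but kept it without any 1 array were ADAT1, GCLC, HDAC2, HMOX1, NQO1, PGF, PIM3, POU5F1P3, PRKG2, SERPINE2, TAS2R20 and TTK. Each clone is 1 isolate, so resistance and clone identity cannot be told apart. Low signals such as ZNF204P and TRDN lie near the array's floor.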
